A study of Mus musculus with 45 samples.

Results

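The dystrophin-glycoprotein complex is described here by 8 genes, picked by a rule on symbols that uses no measured value, though with earlier results of these data known: Dmd, Utrn, Dag1, Sgca, Sgcb, Sgcd, Sspn and Dtna. All 8 were found among the 23284 genes listed in each mouse heart RNA-seq file, and all 8 passed the filter on low values in each of the 4 comparisons made. The series covers GATA4 binding, histone marks and gene expression in mouse heart at different stages and after banding, and 6 RNA-seq libraries were used here. They were made from banded hearts (1 library, banding), sham-operated hearts (1 library, sham), adult hearts (2 libraries, adult), E12.5 hearts with the genotype label Gata4 KO (1 library) and E12.5 hearts (1 library), a stage given in embryonic days. For every library the labels give primary heart tissue and pooled RNA, 2 µg of which went through poly(A) selection. The labels state no age and no vessel for banding and sham. They name the alleles Gata4fbio, Rosa26BirA, cTNTcre and Gata4flox for the whole series without tying any of them to a library, so the genotype of each group is known only as far as given above. A cTNT-driven Cre acts in cardiomyocytes, and the labels do not say whether it was present in any of these libraries. The labels do not say whether separate animals gave the 2 adult libraries, so p-values reflect no more than the spread of libraries, and that spread may be technical.

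The complex spans the membrane of muscle cells and ties the actin cytoskeleton inside to the laminin matrix outside, which protects the membrane during contraction. Dystrophin, the Dmd product, or its relative utrophin, the Utrn product, binds actin. Dystroglycan, the Dag1 product, binds dystrophin with its transmembrane part and laminin with its sugar-carrying outer part. Sarcoglycans and sarcospan, encoded by Sspn, form a subcomplex beside dystroglycan, and dystrobrevin, encoded by Dtna, sits with the syntrophins on the cytoplasmic side. Loss of Dmd causes Duchenne muscular dystrophy, and loss of sarcoglycan genes causes limb-girdle dystrophies, often with cardiomyopathy. In cardiomyocytes the complex lines the lateral membrane and the T-tubules.

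The libraries held 14015985 mapped reads in banding, 12086929 in sham, 12619710 and 12357585 in adult, 17805109 in the library labelled Gata4 KO and 21056784 in E12.5. Reads on listed genes made up 58.0% of these in banding and 55.6% in sham, against 83.6% and 83.9% in adult, 76.8% in the library labelled Gata4 KO and 75.9% in E12.5. Rn45s, the precursor of ribosomal RNA, had a level of 12.96 in banding and of 12.94 in sham, against 8.65 and 8.94 in adult. Banding and sham thus stand apart from the other libraries, and levels of the 8 genes set across that gap are given below with other scalings. Gata4 itself stood at 6.13 in the library labelled Gata4 KO, against 5.93 in E12.5, so the targeted gene was not lower in that library. All 8 cardiomyocyte markers looked for reached at least 1 FPKM in every library, as the tissue label says. FPKM are fragments per kilobase of gene model, divided by the mapped reads of the library. Unless another scale is named, a level is log2(FPKM + 1) and a difference is between such levels, which understates the change of weakly expressed genes. In bulk tissue, fewer cells of a type and less RNA per cell cannot be told apart.

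Of the 8 members, RefSeq promoter windows of GRCm38.p6 were found for 7, with none for Dtna. The 250 bases before a start were searched on both strands for AGATAA and TGATAA, known as GATA sites, for CATTCC, for CANNTG and for the MEF2 and CArG motifs by name. Of 32536 promoter windows of this length, 9.97% hold AGATAA, 7.79% hold TGATAA, 12.6% hold CATTCC, 66.2% hold CANNTG, 2.89% hold the MEF2 motif and 1.48% hold the CArG motif. None of the 10 windows of the 7 members held AGATAA or TGATAA. The windows shown are both Dmd starts, because Dmd has separate starts whose reads the gene-level value adds up, and Sgcb, the member with the largest difference between adult and E12.5. Capitals mark matches to any motif but CANNTG, each given as its distance in bases before the start.
Dmd chrX:82948620-82948869, plus strand: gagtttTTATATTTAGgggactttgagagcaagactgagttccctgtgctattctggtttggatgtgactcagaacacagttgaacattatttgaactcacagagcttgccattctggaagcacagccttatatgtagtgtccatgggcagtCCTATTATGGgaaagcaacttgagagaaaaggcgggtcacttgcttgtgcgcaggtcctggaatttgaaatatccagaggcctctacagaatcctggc
Dmd chrX:85048045-85048294, plus strand: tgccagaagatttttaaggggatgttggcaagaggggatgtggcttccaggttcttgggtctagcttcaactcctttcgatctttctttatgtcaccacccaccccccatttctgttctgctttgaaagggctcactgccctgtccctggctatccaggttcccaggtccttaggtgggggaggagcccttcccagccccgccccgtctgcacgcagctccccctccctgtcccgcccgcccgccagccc
Sgcb chr5:73647738-73647987, minus strand: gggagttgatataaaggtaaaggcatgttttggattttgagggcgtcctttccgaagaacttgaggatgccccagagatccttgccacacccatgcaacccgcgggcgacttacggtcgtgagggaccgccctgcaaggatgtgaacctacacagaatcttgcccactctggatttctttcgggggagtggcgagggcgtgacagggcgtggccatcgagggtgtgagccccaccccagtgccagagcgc
The first Dmd start lies 5.61% of the way into the gene and its window holds a MEF2 match 244 bases and a CArG match 98 bases before the start. The other Dmd start lies 93.4% of the way in, and no capitals fall in its window or in that of Sgcb. These matches are descriptions of letters, and binding was not measured here.

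Adult heart was compared with E12.5 heart to ask how the complex differs between the mature and the embryonic heart. Dmd, Sgcb and Dtna rose most in adult hearts, by 7.91-, 8.52- and 7.72-fold in FPKM, while Dag1 rose 1.25-fold and Sgcd did not pass the test. In all, 7 of the 8 members rose and 0 fell at an adjusted p under 0.05 (limma). Among all 12658 genes tested, 23.4% rose and 48.4% fell. The median difference of the members was 1.51, against -0.51 over all tested genes. The split over all genes depended on the scaling, with 2965 rising and 6123 falling as deposited, 3766 and 4841 after upper-quartile scaling, 4131 and 4409 after median-of-ratios scaling, and 3701 and 4907 after scaling without the 50 most abundant genes. Under these scalings the median over all genes was -0.18, -0.05 and -0.20, and 8 of the 8 members rose.

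Dmd, the actin-binding rod of the complex, stood at 5.31 and 5.22 in adult, against 2.52 in E12.5. Both adult libraries lay far above the embryonic one, and the difference was 2.74 ± 0.09 (SE, limma, n = 2 adult and 1 E12.5 libraries, adjusted p = 0.00398). Utrn, which encodes the relative that dystrophin is known to replace at the membrane of maturing muscle fibres, stood at 4.77 and 4.86 in adult, against 3.58 in E12.5. It rose too, by 1.23 ± 0.09 (SE, limma adjusted p = 0.00701), and did not fall as Dmd rose. Dmd made up 59.6% and 56.4% of the summed Dmd and Utrn FPKM in adult, against 30.2% in E12.5. The exact 95% intervals were 58.6 to 60.5% and 55.4 to 57.3% in adult and 28.8 to 31.5% in E12.5. Utrn was thus the more abundant of the pair per length in the embryonic heart, and Dmd in adult heart.

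Dag1 was the most abundant member per length in both stages, at 82.3 and 80.3 FPKM in adult, against 65.0 FPKM in E12.5. Its levels of 6.38 and 6.35 in adult lay just above 6.05 in E12.5, a difference of 0.32 ± 0.06 (SE, limma adjusted p = 0.0349). That call was lost without limma's mean-variance trend (adjusted p = 0.0621) and with both E12.5 libraries as 1 group (adjusted p = 0.126). Dag1 made up 22.9% and 22.5% of the summed FPKM of the 8 members in adult, against 41.5% in E12.5. The summed FPKM of the members was 359.9 and 357.5 in adult, against 156.8 in E12.5, so the other members gained most of the difference.

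The sarcoglycans did not move as a block. Sgcb, encoding beta-sarcoglycan, stood at 5.77 and 5.86 in adult, against 2.91 in E12.5, a difference of 2.91 ± 0.09 (SE, limma adjusted p = 0.00398). Sgca, encoding alpha-sarcoglycan of striated muscle, stood at 5.86 and 5.83 in adult, against 5.05 in E12.5, and rose by 0.79 ± 0.07 (SE, limma adjusted p = 0.00822). Sgcd, encoding delta-sarcoglycan, stood at 4.36 and 4.24 in adult, against 4.06 in E12.5, a difference of 0.24 ± 0.10 (SE, limma adjusted p = 0.138). It passed the test under each of the 3 other scalings (adjusted p = 0.0377, 0.0230 and 0.0299) and with both E12.5 libraries as 1 group (adjusted p = 0.0498). Sgce, the epsilon-sarcoglycan gene whose product resembles alpha-sarcoglycan and is found in many tissues, went the other way and stood at 1.86 and 2.03 in adult, against 4.41 in E12.5. It fell by 2.46 ± 0.14 (SE, limma adjusted p = 0.00567), and Sgcz, the zeta gene, had 1 read in all 6 libraries together.

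The summed FPKM of Sgca, Sgcb, Sgcd and Sgce was shared out differently in the 2 stages. Sgca made up 42.9% and 41.6% of this sum in adult, against 43.04% in E12.5. Sgcb made up 40.4% and 42.7% in adult, against 8.73% in E12.5, and Sgce 1.98% and 2.31% in adult, against 27.2% in E12.5. Sgcd made up 14.7% and 13.4% in adult, against 21.1% in E12.5. Sgca thus held a like share in both stages, and Sgcb the share that Sgce and Sgcd had more of in the embryonic heart. The sum with Sgce was 133 and 134 FPKM in adult, against 74.6 FPKM in E12.5. As a share of Sgca and Sgce together, Sgca had 95.6% and 94.7% in adult, against 61.3% in E12.5, with exact 95% intervals of 94.3 to 96.6%, 93.4 to 95.9% and 59.0 to 63.6%.

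Sspn, whose product sarcospan spans the membrane and binds the sarcoglycans, stood at 6.20 and 6.24 in adult, against 4.43 in E12.5. It rose by 1.79 ± 0.07 (SE, limma adjusted p = 0.00405). On the cytoplasmic side, Dtna stood at 3.46 and 3.05 in adult, against 1.08 in E12.5, and rose by 2.17 ± 0.25 (SE, limma adjusted p = 0.0132). Its adult libraries differed more from each other than those of any other member, with an SD of 0.29. Dtnb, encoding the dystrobrevin better known from brain and other non-muscle tissue, fell by 1.39 ± 0.11 (SE, limma adjusted p = 0.00739) on 19 and 14 reads in adult and 156 reads in E12.5. Dtna made up 94.2% and 94.0% of the summed Dtna and Dtnb FPKM in adult, against 27.04% in E12.5 (exact 95% intervals 91.2 to 96.5%, 90.3 to 96.7% and 22.7 to 31.8%). The syntrophins are adaptors that carry signalling proteins to the complex, and neither Sntb1 nor Sntb2 passed. Their differences were -0.45 for Sntb1 and 0.34 for Sntb2 (limma adjusted p = 0.0572 and 0.217). After median-of-ratios scaling Sntb2 passed at 0.70 (adjusted p = 0.0462). Drp2, Sntg1 and Sntg2 were too low to be tested.

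**Figure D1:**
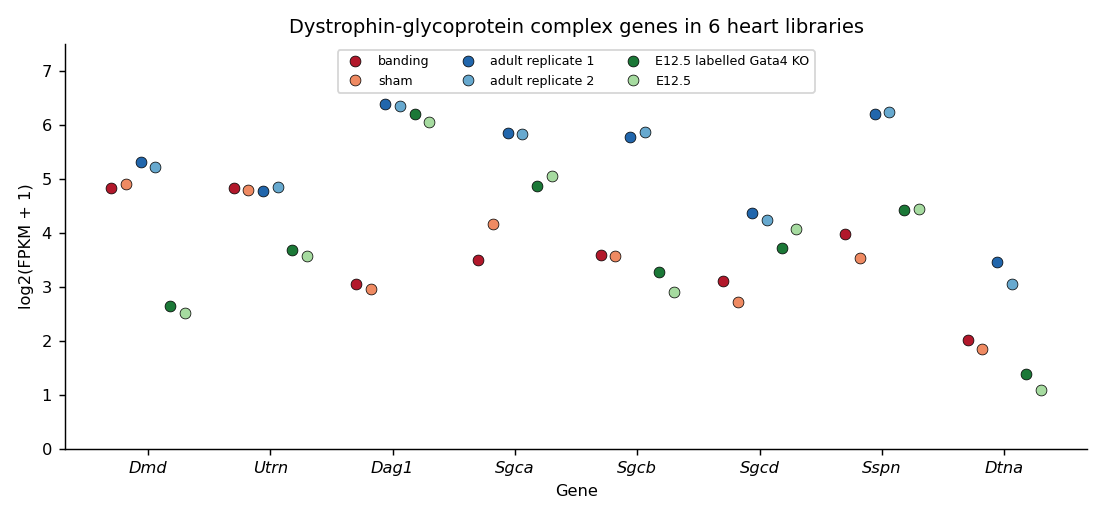
Level of each of the 8 members as log2(FPKM + 1) in banding, sham, the 2 adult libraries, the E12.5 library labelled Gata4 KO and E12.5, 1 point per library. Dmd stood at 5.31 and 5.22 in adult and at 2.52 in E12.5, while Dag1 had 3.05 in banding and 2.96 in sham, against 6.05 or more in each of the 4 other libraries.

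Other cell types moved between these libraries too. The summed FPKM of 6 smooth muscle markers was 253 and 272 in adult, against 542 in E12.5, and that of 6 erythroid markers was 0.52 and 1.31 in adult, against 21255 in E12.5. The 7 fibroblast markers summed to 102 and 128 in adult, against 142 in E12.5, and the 8 cardiomyocyte markers to 52245 and 51956 in adult, against 40363 in E12.5. Single markers did not all follow their sum. Of the smooth muscle markers 3 were higher in both adult libraries and 3 lower, with Myh11 at 42.9 and 51.8 FPKM in adult, against 0.0573 FPKM in E12.5, and Acta2 at 129.6 and 130.02 FPKM in adult, against 376.03 FPKM in E12.5. Of the fibroblast markers 2 were higher in both adult libraries and 4 lower, with Dcn at 65.3 and 80.8 FPKM in adult, against 16.2 FPKM in E12.5, and Col1a1 at 6.73 and 8.46 FPKM in adult, against 32.2 FPKM in E12.5. Of the cardiomyocyte markers 5 were higher and 3 lower, and of the erythroid markers 0 were higher and 5 lower. The markers named singly were chosen after their values were seen. Their part in the differences of the complex was not tested. By length of the gene model, the median difference over all tested genes was -0.93 under 2000 bases and -0.08 at 8000 bases and more, and the Dmd and Utrn models are 13852 and 12382 bases long. The part of length was not tested.

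**Figure D2:**
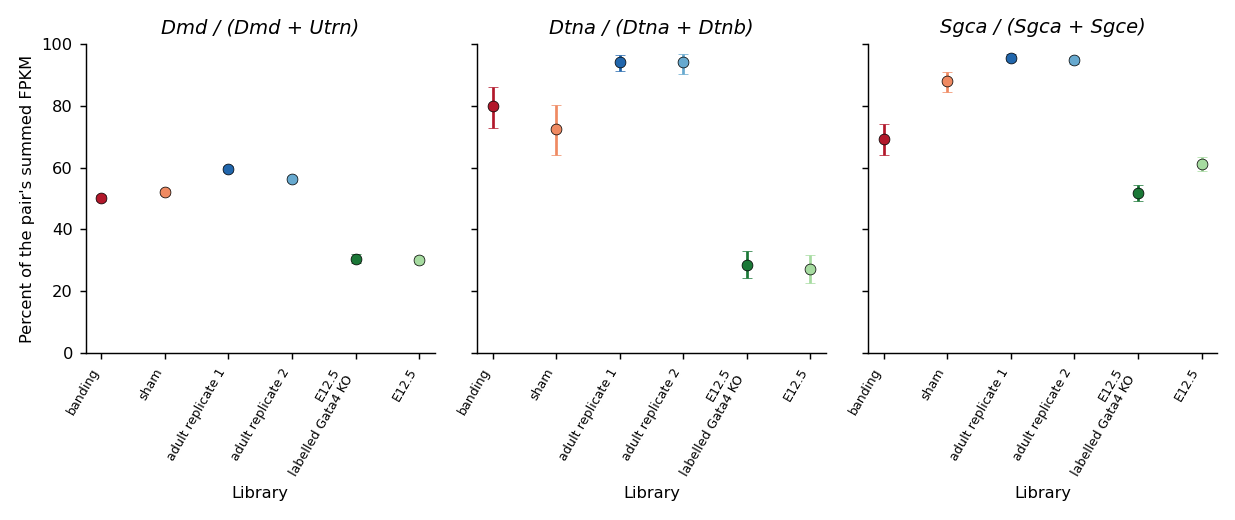
Share of the first gene in the summed FPKM of each pair, in percent, for Dmd with Utrn, Dtna with Dtnb, and Sgca with Sgce, 1 point per library with exact 95% binomial intervals. Dmd held 59.6% and 56.4% in adult and 30.2% in E12.5.

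**Figure D3:**
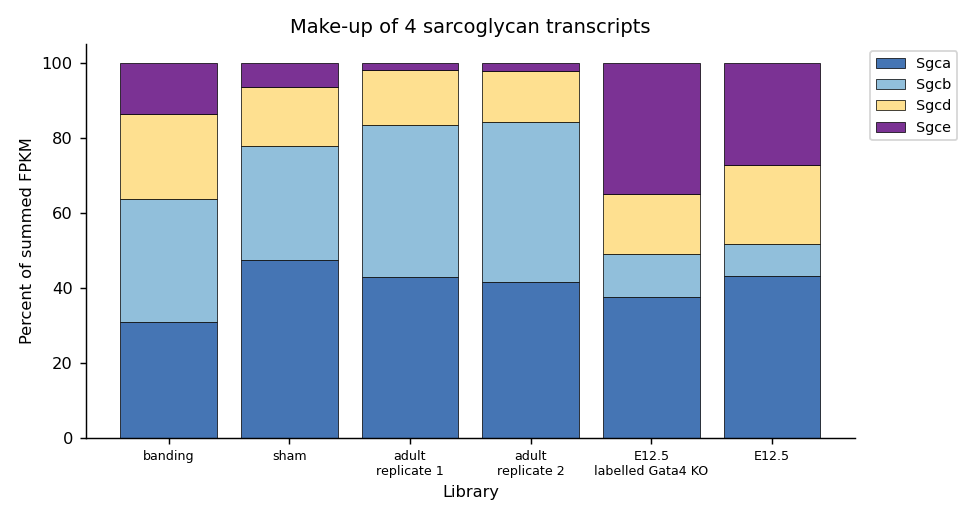
Percent of the summed FPKM of Sgca, Sgcb, Sgcd and Sgce held by each gene, 1 stacked bar per library. Sgce held at most 2.31% in the adult libraries, against 34.9% in the library labelled Gata4 KO and 27.2% in E12.5.

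Sham heart was set against adult heart to place the control of the banding experiment beside hearts with no operation label, across the gap between libraries described above. The adult libraries also served in the comparison with E12.5, so the values of both comparisons share them. Dag1 fell most among the members in sham, 12.02-fold in FPKM, and Sspn, Sgcb, Sgca, Sgcd and Dtna fell by 3.32- to 6.94-fold, while Utrn did not pass. As deposited, 7 of the 8 members fell and 0 rose (limma), against 44.8% of the 11582 tested genes that fell and 13.7% that rose. The members that fell numbered 5 after upper-quartile scaling, 6 after median-of-ratios scaling, 5 without the 50 most abundant genes and 5 with no filter on low values, and those that rose 1, 1, 2 and 0. With no filter, 18.3% of 17237 genes fell and 8.33% rose. The median difference was -1.62 for the members and -0.44 over all tested genes. The split over all genes turned with the scaling, with 1581 rising and 5191 falling as deposited, 4179 and 2541 after upper-quartile scaling, 3153 and 3283 after median-of-ratios scaling, and 4147 and 2557 without the 50 most abundant genes. The medians over all genes were then 0.21, -0.01 and 0.21, and those of the members -0.92, -1.16 and -0.92. The members' median lay below that of all tested genes on each scale, but a scaling shifts both medians nearly alike. That order could thus hardly change with the scale, so its being kept is no check on the result.

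Dag1 stood at 2.96 in sham, against 6.38 and 6.35 in adult, with 361 reads in sham and 4586 and 4382 in adult. The difference was -3.41 ± 0.09 (SE, limma, n = 1 sham and 2 adult libraries, adjusted p = 0.00269), and 0.147% of the tested genes lay lower. Sspn stood at 3.53 in sham, against 6.20 and 6.24 in adult, and differed by -2.68 ± 0.09 (SE, limma adjusted p = 0.00269). The gene of the laminin receptor and that of sarcospan thus showed the largest falls among the members. Sgcb stood at 3.56 in sham, against 5.77 and 5.86 in adult, a difference of -2.25 ± 0.10 (SE, limma adjusted p = 0.00269). Sgca and Sgcd differed by -1.67 and -1.58 (limma adjusted p = 0.00276 and 0.00359). Dtna differed by -1.41 ± 0.23 (SE, limma adjusted p = 0.0144), a call lost under upper-quartile scaling (adjusted p = 0.0694), without the 50 most abundant genes (0.0628) and with no filter (0.0821).

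For the actin-binding pair the direction depended on the scaling. Dmd stood at 4.91 in sham, against 5.31 and 5.22 in adult, a difference of -0.35 ± 0.10 (SE, limma adjusted p = 0.0481) as deposited. Its sign turned under all 3 other scalings, at 0.39, 0.15 and 0.39 (adjusted p = 0.0616, 0.319 and 0.0436 for upper quartile, median of ratios and without the 50 most abundant genes), and the fall was lost with no filter on low values (adjusted p = 0.0887), without the trend (0.0856) and with all 6 libraries in the fit (0.0622). Utrn stood at 4.79 in sham, against 4.77 and 4.86 in adult, a difference of -0.02 ± 0.10 as deposited (limma adjusted p = 0.874) and 0.72, 0.48 and 0.72 under the other scalings, each of which passed (adjusted p = 0.0111, 0.0239 and 0.0126). No direction is therefore given for either gene, while the other 6 members lay lower in sham under every scaling. Within the library, where scaling cancels, Dmd held 81.2% of the summed Dmd and Dag1 FPKM in sham, against 32.0% and 31.1% in adult (exact 95% intervals 79.5 to 82.8%, 31.2 to 32.8% and 30.3 to 31.9%). Dmd carried 26.7% of the 8 members' FPKM in sham, against 10.8% and 10.1% in adult, and Utrn 24.5% in sham, against 7.30% and 7.84% in adult.

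Among the relatives, Sgce stood at 1.74 in sham, against 1.86 and 2.03 in adult, a difference of -0.21 that did not pass (limma adjusted p = 0.331). Sntb1 fell by 1.12 (limma adjusted p = 0.00884), and Sntb2 did not pass at -0.24 (adjusted p = 0.338). Sgce and Sntb2 turned their sign under the other scalings and Sntb1 did not. The fibroblast markers summed to 280 FPKM in sham, against 102 and 128 in adult, with 4 of 7 higher than in both adult libraries and 2 lower. The cardiomyocyte markers summed to 29598 FPKM in sham, against 52245 and 51956 in adult, with 7 of 8 lower and Nppa higher. Smooth muscle markers summed to 137 FPKM in sham, against 253 and 272 in adult, with 5 of 6 lower and 1 higher. Endothelial markers summed to 170 FPKM in sham, against 264 and 260 in adult, with 6 of 7 lower and 1 higher. These sums are as deposited. Upper-quartile scaling, which divides by 0.646 in sham and by 1.07 and 1.13 in adult, would raise every sum in sham relative to adult. The share of reads on listed genes, Rn45s and the nuclear RNA Malat1 (12.18 in sham, against 11.05 and 11.05 in adult) moved with this comparison as well. Malat1 was chosen after its values were seen. The part of these measures in the result was not tested.

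**Figure D4:**
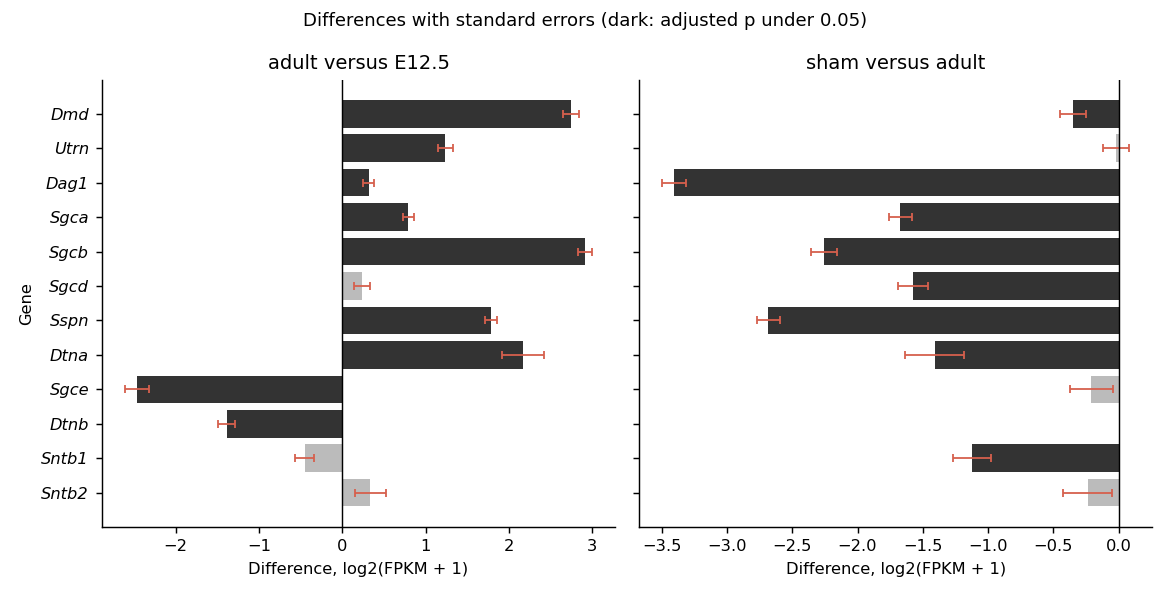
Bars give the difference in log2(FPKM + 1) for adult minus E12.5 and for sham minus adult, for the 8 members and for Sgce, Dtnb, Sntb1 and Sntb2 where tested, with standard errors from limma. Dark bars have an adjusted p under 0.05. Dag1 lies at -3.41 in sham minus adult and at 0.32 in adult minus E12.5.

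Banding was compared with sham to ask how the complex differs in hearts under the stress that the labels call banding. Each group had 1 library, so there is no replicate check and no p-value, and ratios carry exact 95% intervals that cover counting error only. Genes were counted as past the rule of size when they differed by at least 2-fold on the log2(FPKM + 1) scale with at least 5 FPKM in the higher library. By this rule 0 of the 8 members were higher or lower, against 1.16% of 11011 genes that were higher and 0.463% that were lower. Between the 2 adult libraries, 0.285% of 10886 genes passed it in either direction. The median difference was 0.06 for the members and 0.03 over all tested genes.

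Sgca lay lowest in banding relative to sham, at 3.50 in banding and 4.17 in sham, with 211 and 301 reads. Its FPKM ratio was 0.605 (95% interval 0.505 to 0.723), and Sgca would pass a rule of 1.5-fold. The share of all genes past 1.5-fold was not counted. Sspn had a level of 3.98 in banding, against 3.53 in sham, a ratio of 1.398 (1.26 to 1.55). Sgcd had 3.10 in banding on 149 reads, against 2.73 in sham on 95 reads, a ratio of 1.35 (1.04 to 1.77). These 3 kept their direction under every scaling. In this 1 banded library the alpha gene was lower and the delta gene and sarcospan higher, with the spread between libraries not covered. Dmd had a ratio of 0.945 (0.909 to 0.983) and kept its direction too. Utrn, Dag1 and Sgcb had ratios of 1.02, 1.07 and 1.02 with intervals that reach 1, and each turned its sign under at least 1 scaling. Dtna had a ratio of 1.17 (0.972 to 1.41).

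Dmd held 50.1% of the summed Dmd and Utrn FPKM in banding (exact 95% interval 49.1 to 51.1%), against 52.1% in sham (51.1 to 53.2%). The adult libraries lay further apart from each other, at 59.6% and 56.4%. Of the summed FPKM of Sgca, Sgcb, Sgcd and Sgce, Sgca had 30.7% in banding, against 47.5% in sham, and Sgce had 13.6% in banding, against 6.54% in sham. The sum was 33.4 FPKM in banding and 35.8 FPKM in sham. Sgce had 2.47 in banding on 115 reads, against 1.74 in sham on 51 reads, a ratio of 1.94 (1.39 to 2.76) that stayed under the rule of size. Sgca held 69.3% of Sgca and Sgce together in banding (64.2 to 74.1%), against 87.9% in sham (84.3 to 90.9%). Fibroblast markers moved with this comparison: all 7 were higher in banding, and their sum was 714 FPKM in banding and 280 FPKM in sham. The cardiomyocyte marker sum was 31613 FPKM in banding and 29598 FPKM in sham, of which Nppa, the gene of a natriuretic peptide, had 5378 FPKM in banding and 309.7 FPKM in sham. Without Nppa, left out after its values were seen, the sum was 26235 FPKM in banding and 29288 FPKM in sham, and 5 of the 8 markers were lower in banding. The part of these in the result was not tested.

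What losing Gata4 does to the complex is the question of setting the library labelled Gata4 KO against E12.5, with the limit that Gata4 was not lower in it. By the rule of size 0 of the 8 members were higher or lower, against 0.929% of 12062 genes that were higher and 0.506% that were lower. The median difference was 0.11 for the members and -0.02 over all tested genes. Dtna stood at 1.38 in the library labelled Gata4 KO and 1.08 in E12.5, a ratio of 1.44 (95% interval 1.15 to 1.797). Sgcb stood at 3.27 in the library labelled Gata4 KO and 2.91 in E12.5, a ratio of 1.33 (1.18 to 1.4996). Sgcd and Sgca lay the other way, with ratios of 0.779 (0.672 to 0.902) and 0.884 (0.803 to 0.973). Dmd, Utrn and Dag1 had ratios of 1.10, 1.09 and 1.11, with lower bounds of 1.02, 1.03 and 1.07. With 1 library in each group, these intervals do not cover the spread between libraries. All of these ratios kept their direction under the other scalings. Sspn had a ratio of 0.988 (0.924 to 1.06) and turned its sign under 2 of them.

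Dmd held 30.5% of the pair with Utrn in the library labelled Gata4 KO and 30.2% in E12.5, and their intervals overlapped. Sgca held 51.8% of Sgca and Sgce (49.3 to 54.3%) in the library labelled Gata4 KO, against 61.3% in E12.5 (59.0 to 63.6%). Of the relatives, Sgce, Dtnb, Sntb1 and Sntb2 had ratios of 1.31, 1.33, 1.56 and 1.43. Erythroid markers summed to 64667 FPKM in the library labelled Gata4 KO and 21255 FPKM in E12.5, with Hba-a1 at 0 in all 6 libraries. Smooth muscle markers summed to 1116 FPKM in the library labelled Gata4 KO and 542 FPKM in E12.5, with 5 of 6 higher, and fibroblast markers to 302 FPKM in the library labelled Gata4 KO and 142 FPKM in E12.5, with all 7 higher. Cardiomyocyte markers summed to 30536 FPKM in the library labelled Gata4 KO and 40363 FPKM in E12.5, with 6 of 8 lower. The part of these in the result was not tested.

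**Figure D5:**
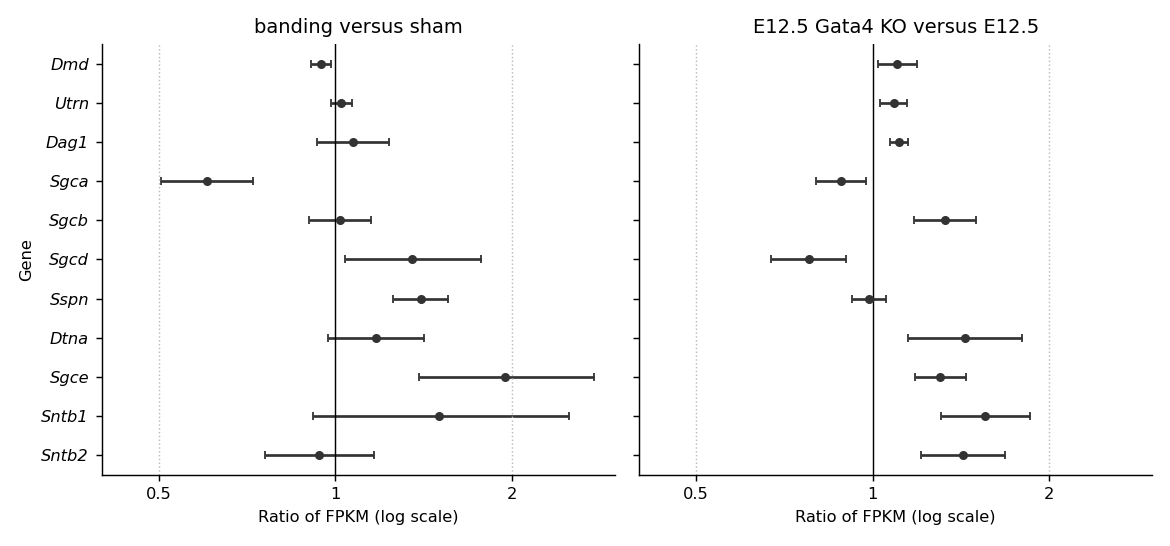
Points give the ratio of FPKM on a log axis for the 8 members, Sgce, Sntb1 and Sntb2, for banding over sham and the library labelled Gata4 KO over E12.5, with exact 95% intervals that cover counting error only. Dotted lines mark 2-fold. Sgca lies at 0.605 and Sgce at 1.94 in banding over sham, and Dtna at 1.44 in the library labelled Gata4 KO over E12.5.

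Across the 6 libraries the order of levels differed between members. Levels of Dmd as deposited ran adult, sham, banding, the library labelled Gata4 KO and E12.5 from high to low. The counting intervals of Dmd overlapped only between the last 2. Utrn as deposited was within counting error between the higher adult library and banding, banding and sham, and sham and the lower adult library. Counting intervals do not cover scaling, and the order of adult and sham turned for Dmd under the other scalings. As deposited, Dag1, Sgca, Sgcd and Sspn lay lower in banding and sham than in both embryonic libraries, and Sgcb and Dtna lay higher. On the deposited scale, sham minus E12.5 was 2.39 for Dmd, 1.21 for Utrn, 0.66 for Sgcb and 0.76 for Dtna, and -3.09 for Dag1, -0.88 for Sgca, -1.34 for Sgcd and -0.90 for Sspn. Banding minus E12.5 had the same signs, at 2.32, 1.25, 0.68, 0.93, -3.00, -1.55, -0.96 and -0.45 for the same genes. Under the other scalings Dmd, Utrn, Sgcb and Dtna stayed higher and Dag1 stayed lower in both operated libraries, while Sspn turned its sign in both, Sgca in sham and Sgcd in banding under upper-quartile scaling alone. For Dag1, sham minus E12.5 lay between -2.13 and -2.03 under these scalings. These are levels with no test.

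The genes whose pattern over the 6 libraries was nearest to Dmd, by root mean square distance after centring among 13383 genes, were Ttn (0.11), Sarnp (0.11) and Cmtm8 (0.13). Ttn encodes titin, the giant spring of the sarcomere. For Utrn they were Dysf (0.03), Plxdc1 (0.06) and Sybu (0.07), and Dysf encodes dysferlin, a membrane repair protein of muscle. Plxdc1 stood at 0 in both embryonic libraries, and Sybu at 0.097 in the library labelled Gata4 KO and 0.021 in E12.5. In the other libraries Plxdc1 reached at most 1.29 and Sybu at most 1.24, so both lay near the floor. Pearson's r of the nearest genes with their member ran between 0.993 and 0.999 over 6 libraries, of which banding and sham share low shares of reads on genes. This is a description, with no test.

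The outer part of dystroglycan binds laminin only when sugars are added by the enzymes of the glycosylation list, whose loss causes dystroglycanopathies. Of its 18 genes 17 were tested between adult and E12.5, and 0 rose and 10 fell, with a median of -0.70, beside 23.4% rising, 48.4% falling and a median of -0.51 over all tested genes. After upper-quartile scaling 3 rose and 8 fell, with a median of -0.40, beside 30.8% rising, 39.6% falling and a median of -0.18 over all genes. Dpm2 and Dpm3, which encode subunits of the enzyme that makes dolichol-phosphate mannose, fell by 4.13 and 5.09 (limma adjusted p = 0.00567 and 0.0139), with Dpm3 on 8 and 1 reads in adult and 500 in E12.5. Their gene models are 861 and 404 bases long, and the median over all tested genes under 2000 bases was -0.93. The part of length was not tested here either. Gmppb, encoding a subunit of the enzyme for GDP-mannose, and Pomt1, an O-mannosyltransferase gene, fell by 1.53 and 1.36 (limma adjusted p = 0.0236 and 0.00922).

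In sham against adult, 2 of 17 genes of this list rose and 7 fell as deposited with a median of -0.41, beside 13.7% rising, 44.8% falling and a median of -0.44 over all tested genes. After upper-quartile scaling 3 of 16 rose and 1 fell with a median of 0.09, beside 34.6% rising, 21% falling and a median of 0.21 over all genes. Dpm3 rose by 2.10 (limma adjusted p = 0.0373) on 32 reads in sham and 8 and 1 in adult. Rxylt1, a ribitol xylosyltransferase gene, fell by 1.60 (limma adjusted p = 0.00397). No gene of the list passed the rule of size in the library labelled Gata4 KO (17 tested) or in banding (16 tested). Over all genes 0.929% were higher and 0.506% lower in the library labelled Gata4 KO, and 1.16% and 0.463% in banding. The largest differences were 0.47 for Gmppb and 0.37 for Pomgnt2 in the library labelled Gata4 KO, and -0.68 for Dpm3 and -0.35 for Pomt2 in banding.

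Among the matrix ligands of dystroglycan, 9 were tested between adult and E12.5, and 3 rose and 5 fell, beside 23.4% rising and 48.4% falling over all genes. After upper-quartile scaling 3 rose and 4 fell, beside 30.8% and 39.6% over all genes. Lama2 and Lamb2, which encode laminin chains, stood at 3.98 and 4.07 and at 5.52 and 5.44 in adult, against 2.11 and 3.63 in E12.5. They rose by 1.91 and 1.85 (limma adjusted p = 0.00538 and 0.00445). Lamb1, another laminin chain gene, and Agrn, encoding agrin, fell by 1.71 and 1.97 (limma adjusted p = 0.0043 and 0.0164). In sham against adult 1 ligand gene rose and 3 fell as deposited, beside 13.7% rising and 44.8% falling over all genes, and 6 rose and 0 fell after upper-quartile scaling, beside 34.6% and 21%. As deposited, Agrn differed by 1.04 (limma adjusted p = 0.0306) and Lamc1 by -0.998 (adjusted p = 0.0162). The Lamc1 call was lost under the other scalings.

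Bgn, encoding the proteoglycan biglycan, which binds dystroglycan and sarcoglycans, was the 1 ligand gene past the rule of size in each single-library comparison, of 9 tested in each. Over all genes 1.16% were higher and 0.463% lower in banding, and 0.929% and 0.506% in the library labelled Gata4 KO. The level of Bgn was 8.23 in banding, against 6.12 in sham, a ratio of 4.36 (95% interval 4.16 to 4.58). In the library labelled Gata4 KO it stood at 6.62, against 5.41 in E12.5, a ratio of 2.36 (2.24 to 2.49). Fibroblast markers were higher in banding and in the library labelled Gata4 KO as well, as given above, and their part was not tested. The next largest were Agrn at -0.49 in banding and Lamb2 at 0.59 in the library labelled Gata4 KO.

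Of the partners at the membrane and cytoskeleton, 14 were tested between adult and E12.5, and 6 rose and 2 fell, beside 23.4% rising and 48.4% falling over all genes. After upper-quartile scaling 8 rose and 0 fell, beside 30.8% and 39.6%. Their median was 0.29 as deposited, where that of all tested genes was -0.51. Itga7, encoding the alpha chain of a muscle laminin receptor that works in parallel to dystroglycan, stood at 4.45 and 4.55 in adult, against 0.47 in E12.5, and rose by 4.02 (limma adjusted p = 0.00398). Ank2, encoding an ankyrin that holds dystrophin and dystroglycan in place, rose by 2.25 (adjusted p = 0.00398), Des, the desmin gene, by 1.397 (0.00507), and Dysf by 1.23 (0.00748). In sham against adult 1 partner gene rose and 11 fell as deposited with a median of -1.03, beside 13.7% rising, 44.8% falling and a median of -0.44 over all genes. After upper-quartile scaling 2 rose and 4 fell with a median of -0.34, beside 34.6% rising, 21% falling and a median of 0.21. Vcl, the vinculin gene, and Itgb1, the beta 1 integrin gene, fell by 1.63 and 1.54 (limma adjusted p = 0.00361 and 0.00299) and kept their fall under the other scalings.

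Of 13 partners tested in banding, 2 were past the rule of size, both higher, beside 1.16% of all genes higher and 0.463% lower. They were Des and Flnc, encoding filamin C, a sarcoglycan-binding actin crosslinker. Des had a level of 10.56 in banding, against 9.21 in sham, a ratio of 2.55 (2.51 to 2.60), and Flnc a level of 4.79 in banding, against 3.59 in sham, a ratio of 2.42 (2.26 to 2.58). None of the 13 partners tested passed the rule of size in the library labelled Gata4 KO, beside 0.929% of all genes higher and 0.506% lower. The largest differences there were -0.36 for Pgm5 and 0.24 for Synm.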

How the data were processed

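Gene expression was measured by RNA-seq in 6 mouse heart libraries in 5 groups (adult, 2 libraries, and 1 library each of banding, sham, E12.5 labelled Gata4 KO and E12.5). The other samples of the series were not analysed here. Per the submitters' processing notes, the series used mm9 with TopHat 1.4, BWA 0.5.9, CASAVA 1.8.2, MACS 1.4 and HTSeq 0.5.3, and the tool behind the expression values is not stated there. The values deposited by the authors are log2(FPKM + 1), read from the values, and were used as deposited. Whole reads, mapped reads and gene-model lengths were recovered from the value steps, with all 98043 values above 0 within 0.001 of a read. Each length was chosen as the smallest to give whole reads in this way, so this fit is no check on the recovery.

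Adult was compared with E12.5, and sham with adult, with limma (version 3.58.1, R 4.3.3), using a trend of variance on mean level, over all genes that reached 1 FPKM in any of the 3 libraries, and p-values were adjusted by Benjamini-Hochberg with a threshold of 0.05. There was 1 residual degree of freedom, so the lone library was assumed to vary like adult. The fit was also run on simulated reads in which all libraries varied alike, so that run could not check this assumption. Banding against sham and the library labelled Gata4 KO against E12.5 had no test. Intervals are exact, at 95%, and cover counting error only, since reads carry no molecular identifiers. The counting does not separate isoforms of a gene or reads of overlapping genes, and strand is not given. Pathway genes were named by a rule of up to 4 members of a list with the largest difference between adult and E12.5 and up to 2 in each other comparison, and the 3 nearest patterns for Dmd and Utrn. Some genes of the complex are not reported here, and sums and counts over lists leave them out. Members and lists were chosen with earlier results of these data known. Gene names, promoters and their coordinates came from RefSeq tables of GRCm38.p6, and Python 3.11.15 with scipy 1.17.1 was used for the rest.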

Additional observations from a re-analysis of the deposited data

How the results depend on the processing

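The scalings of the pathway lists and of the operated hearts against E12.5, and the cardiomyocyte marker sum without Nppa, were chosen after seeing the data. No paired analysis was possible because, among the RNA-seq groups, replicate numbers are given for adult alone. Over 120 values of a member under an alternative with a limma test, 102 kept direction and side of the threshold, 8 lost the threshold, 4 gained it and 6 turned their sign. Of 32 values with 1 adult library left out, which have no test, 31 kept their direction and 1 turned. Between sham and adult, the count of members that rose was 0 as deposited and 1, 1 and 2 under upper-quartile scaling, median-of-ratios scaling and scaling without the 50 most abundant genes. Dmd stood at 0.39, 0.15 and 0.39 and Utrn at 0.72, 0.48 and 0.72 under these, in place of -0.35 and -0.02. Utrn ranged from -0.0645 to 0.025 when 1 adult library was left out, which leaves no residual degree of freedom, so these are values with no test and no counts of calls could be had. For banding against sham, 1 member (Sgca) was lower at 1.5-fold in place of 0 at 2-fold, and the share of all genes past 1.5-fold was not counted. As a share of reads in place of FPKM, Dmd held 62.2% and 59.1% of the pair with Utrn in adult, 52.9% in banding, 54.9% in sham, 32.9% in the library labelled Gata4 KO and 32.6% in E12.5. Without Sgce in the sum, Sgca held 35.6% in banding, 50.8% in sham, 43.7% and 42.6% in adult, 57.6% in the library labelled Gata4 KO and 59.1% in E12.5. The scalings change the common factor of each library, and whether one of them is right for banding and sham was not tested. Depth limits Dtnb and Sgce in the adult and operated libraries to at most 115 reads.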
